A study of Homo sapiens with 6 samples.

Results

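The genes that copy DNA and divide the cell were examined in SH-SY5Y cells, an established human neuroblastoma line. The 45 genes were taken by name from the 58395 genes of the count table, and each name matched 1 gene. They fall into 20 genes of DNA replication, 20 genes of mitosis and 5 regulators. The regulators are cyclins and transcription factors that act at the entry into S phase or activate replication or mitotic genes. All 45 had enough reads to be tested. Their read counts ran from 9 to 6849 per library, and from 136 to 6849 without the GINS subunit gene GINS1.

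Tau-labelled cells received a pcDNA3.1 plasmid carrying the cDNA of human Tau 0N4R, and control cells received the empty pcDNA3.1 plasmid, both by lipid transfection. From the next day all cells were given 10 µM retinoic acid for 5 days and then 50 ng/mL BDNF for 15 days without serum, a protocol that differentiates this line towards neurons. There were 3 libraries labelled Tau and 3 labelled control, from poly(A) RNA of 1 cell line, with totals of 27945481 to 31706415 reads. Whether the transfection was transient is not stated, and no step that selects cells carrying the plasmid is described. Nothing states that the replicates came from separate cultures, so p-values reflect only how far these libraries varied, which may be technical.

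The labels were checked before any comparison. MAPT, the gene encoding Tau, had 34.6, 32.6 and 34.6 CPM (read counts scaled to a common library size with TMM factors) in the libraries labelled Tau, against 34.8, 51.9 and 41.6 CPM in the control libraries. The log2 fold change was -0.33 (95% confidence interval -0.73 to 0.06, adjusted p = 0.239, edgeR quasi-likelihood test with Benjamini-Hochberg adjustment). With the trend of fold change on GC content removed (described below) MAPT was called lower, at -0.55 (adjusted p = 0.0985, edgeR). The MAPT reads thus did not lie higher in any library labelled Tau than in a control library, and every direction below is that of the labels. Of 16 neuronal and noradrenergic markers 15 were tested, at a median percentile of 94.4 among all tested genes in reads per kilobase, led by STMN2, PHOX2A and HAND2. The markers called lower included MAP2, NEFL and DBH and 0 were called higher, where the same rule called 8.42% of all tested genes lower and 9.37% higher. Without control replicate 1 no marker was called, and 2 were called higher without control replicate 2 or with the share of mitochondrial reads as a covariate. The summed level of the 15 was 621 to 725 CPM per kilobase in the libraries labelled Tau and 713 to 876 in the control libraries. The part of this in the results below was not tested. TH, which makes the precursor of dopamine and noradrenaline, was not tested, and TUBB3 was at percentile 5.6. TUBB3 shares 21.3% of its exon bases with another annotated gene, and the part of this in its low count was not tested. Of 10 mesenchymal neuroblastoma markers 7 were tested, at a median percentile of 12.5, with VIM at 98.6 and TWIST1 at 97.7. Of the 7, 1 was called higher and 0 lower, against the same 9.37% and 8.42% of all tested genes. With the GC trend removed 1 was higher and 1 lower, against 6.55% and 4.11%. Their summed level was 135 to 140 CPM per kilobase in the libraries labelled Tau and 157 to 164 in the control libraries. Reads from mitochondrial genes made up 45.8, 57.8 and 53.8% of the libraries labelled Tau and 45.6, 30.5 and 45.6% of the control libraries.

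DNA replication starts when the CDC6 and CDT1 proteins load the MCM helicase onto origins. The helicase is then activated with CDC45 and the GINS complex, and polymerases follow it, held by the PCNA clamp that the RFC complex loads. Mitosis is driven by cyclin B with CDK1 and by the Aurora and Polo kinases, is held by the BUB checkpoint until chromosomes are attached, and ends when CDC20 and UBE2C direct the anaphase-promoting complex (APC/C) to destroy the cyclins. The replication genes are classic targets of E2F factors. The mitotic genes are held down in quiescent cells by the DREAM complex through CHR elements, and are activated by B-MYB (MYBL2) and FOXM1 in cycling cells. Cells that leave the cycle to differentiate lose both programmes. In bulk RNA, fewer cells in cycle and less RNA of these genes per cell cannot be told apart.

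The promoters are shown because the searched letters were found in unequal shares of the replication and mitosis genes. The RefSeq promoter table (GRCh38.p14) held 37 of the 45 genes, and had no entry for AURKA, BIRC5, CCNE2, FOXM1, MCM4, MCM5, TPX2 or UBE2C. The 250 bases before each start were searched on both strands for an E2F site (the letters TTCCCGC or TTCGCGC or TTGGCGC or TTGCCGC), a CHR element (TTTGAA or TTCGAA) and a CCAAT box (CCAAT). A gene with several starts was counted if any of them held the letters. The reverse of a CCAAT box, ATTGG, can overlap TTGGCGC, so that the same bases may count for both. An E2F site was found in 12 of 18 replication genes (66.7%) and in 3 of 16 mitosis genes (18.8%), against 13.0% of all 27305 genes in the table. A CHR element was found in 2 of 18 replication genes (11.1%) and in 8 of 16 mitosis genes, against 17.2% of all genes. A CCAAT box was found in 12 of 18 replication genes (66.7%) and 14 of 16 mitosis genes (87.5%), against 37.0% of all genes. CHR and CCAAT stood together in 7 of 16 mitosis genes (43.8%), against 6.24% of all genes. A match describes the letters only.

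RFC3 is the clamp loader gene with the smallest p among the replication genes. PCNA and MCM3 were chosen after their motifs were seen to show both E2F sites and CCAAT boxes. The replication promoters below are those of these 3 genes. Each is given as the 150 bases that end just before the start, 5′ to 3′ on the gene's strand, with E2F, CHR and CCAAT letters in capitals. RFC3 lies at chr13:33817999-33818148 on the plus strand, PCNA at chr20:5126623-5126772 on the minus strand and MCM3 at chr6:52284743-52284892 on the minus strand. The capitals of the E2F sites read GCGGGAA, the reverse complement of TTCCCGC, in all 3 sequences.
RFC3: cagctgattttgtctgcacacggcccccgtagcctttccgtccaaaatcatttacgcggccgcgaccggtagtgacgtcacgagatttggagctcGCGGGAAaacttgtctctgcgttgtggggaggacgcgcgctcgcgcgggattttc
PCNA: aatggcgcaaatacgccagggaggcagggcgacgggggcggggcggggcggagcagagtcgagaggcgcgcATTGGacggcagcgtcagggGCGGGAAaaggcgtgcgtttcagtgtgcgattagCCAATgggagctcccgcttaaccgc
MCM3: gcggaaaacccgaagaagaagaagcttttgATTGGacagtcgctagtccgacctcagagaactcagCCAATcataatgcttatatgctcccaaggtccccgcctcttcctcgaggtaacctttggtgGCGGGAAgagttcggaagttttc

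The mitotic promoters are those of KIF20A, the mitosis gene with the smallest p, and of CCNB2, PLK1 and CDC20, chosen after their motifs were seen to show CHR elements with CCAAT boxes. KIF20A lies at chr5:138178962-138179111, CCNB2 at chr15:59104996-59105145, PLK1 at chr16:23678739-23678888 and CDC20 at chr1:43358831-43358980, all on the plus strand. CCNB2 held 3 CCAAT boxes, which begin 120, 87 and 54 bases before the start, and a CHR element that begins 29 bases before it. In PLK1 the CHR element also began 29 bases before the start. KIF20A held CCAAT letters in reverse and no CHR letters.
KIF20A: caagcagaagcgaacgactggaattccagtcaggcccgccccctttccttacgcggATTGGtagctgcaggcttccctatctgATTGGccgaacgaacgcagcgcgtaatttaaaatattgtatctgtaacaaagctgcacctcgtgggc
CCNB2: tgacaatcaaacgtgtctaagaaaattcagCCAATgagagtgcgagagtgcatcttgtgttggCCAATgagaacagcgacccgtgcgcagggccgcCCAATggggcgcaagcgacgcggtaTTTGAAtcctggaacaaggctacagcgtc
PLK1: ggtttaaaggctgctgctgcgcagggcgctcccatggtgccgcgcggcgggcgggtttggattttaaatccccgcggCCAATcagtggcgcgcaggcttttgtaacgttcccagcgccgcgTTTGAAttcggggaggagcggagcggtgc
CDC20: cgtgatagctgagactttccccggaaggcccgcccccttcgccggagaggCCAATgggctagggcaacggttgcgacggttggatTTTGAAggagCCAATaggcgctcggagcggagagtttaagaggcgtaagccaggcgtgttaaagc

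The promoter of CCNE1, the cyclin gene with the smallest p among the 5 regulators, lies at chr19:29811841-29811990 on the plus strand and held none of the searched letters in these bases.
CCNE1: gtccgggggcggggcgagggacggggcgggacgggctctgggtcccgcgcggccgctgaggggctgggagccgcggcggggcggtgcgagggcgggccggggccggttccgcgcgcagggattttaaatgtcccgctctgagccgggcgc

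The first question was whether these differentiated cultures expressed the genes of cycling cells at all, and they did in every library. Levels were compared between genes as CPM per kilobase of the gene length implied by the deposited values. The 45 genes had a median level of 5.31 CPM per kilobase, against 2.27 for all tested genes, and a median percentile of 71.8. The replication genes stood at a median percentile of 66.8, the mitosis genes at 77.8 and the regulators at 79.0. PCNA, the sliding clamp of the polymerases, was the highest at percentile 98.7, with mean levels of 86.0 CPM per kilobase in the libraries labelled Tau and 105 in the control libraries. UBE2C, the ubiquitin-conjugating enzyme of the APC/C, followed at percentile 97.4, then MCM7 at 95.7. MKI67, the gene of the Ki-67 antigen, was at percentile 51.5 and PLK1 at 39.0. The lowest was GINS1 at percentile 4.3, with mean levels of 0.103 and 0.163 CPM per kilobase in the Tau-labelled and control libraries. Together the 45 genes took 0.367, 0.271 and 0.266% of the non-mitochondrial reads in the libraries labelled Tau, against 0.297, 0.298 and 0.301% in the control libraries. The control libraries lay close together, and the Tau-labelled libraries lay on both sides of them.

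**Figure D1:**
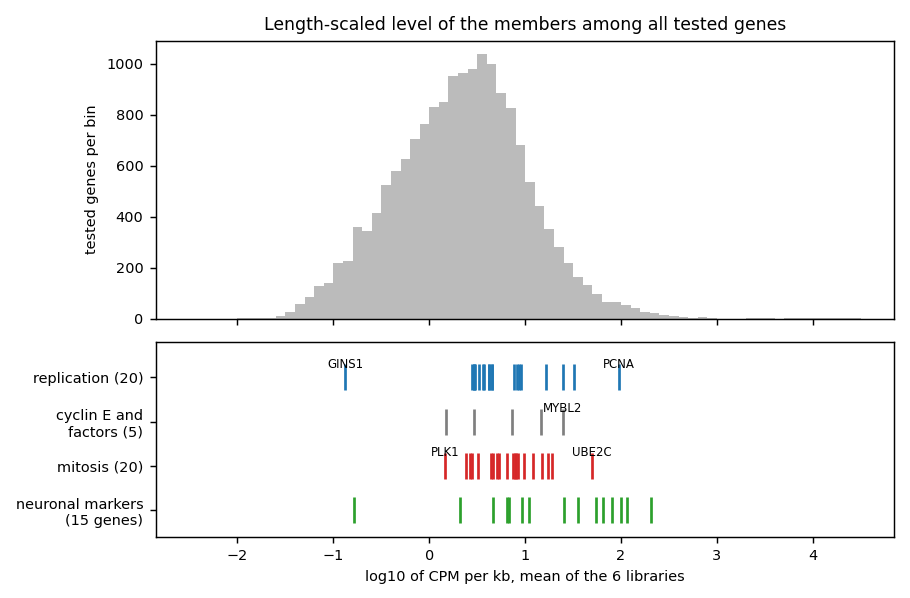
Upper panel, number of tested genes in each bin of level, on an axis of log10 CPM per kilobase averaged over the 6 libraries. Lower panel, 1 tick for each gene of the replication, regulator and mitosis groups and of 15 neuronal markers on the same axis, with GINS1 (percentile 4.3) and PCNA (percentile 98.7) at the ends of the 45 genes.

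The second question was whether these genes differed between the Tau-labelled and the control libraries. Of the 45 genes 0 were called higher and 1, RFC3, was called lower. A call required an adjusted p under 0.1 together with a log2 fold change beyond 0.5 in size. Of all 16778 tested genes 17.8% were called under the same rule, which was 9.37% higher and 8.42% lower. By p before adjustment, at 0.05, edgeR picked out 5 of the 45, against 29.1% of all tested genes: RFC3, CCNE1, KIF20A, POLE2 and POLA1. DESeq2 called 3 of the 45 higher (POLA1, CCNE1 and KIF20A) and 1 lower (RFC3), against 19.2% of all genes in either direction. Without control replicate 3 edgeR called 6 of the 45 higher and 2 lower, against 29.9% of all genes, and without Tau replicate 1 it called 1 higher and 1 lower, against 11.5%. The median log2 fold change was 0.05 over the 45 genes, -0.05 over the replication genes and 0.07 over the mitosis genes, against -0.03 over all tested genes. A missed threshold does not show that a gene did not differ, and the intervals say how large a difference the data leave. The 95% confidence interval of the log2 fold change lay within ±1 for 40 of the 45 genes and within ±0.5 for 9. The libraries of the groups did not overlap for 8 genes. Tau-labelled libraries lay above for 5 (CDC6, POLE2, CCNE1, E2F1, KIF20A), against 16.1% of all tested genes, and below for 3 (MCM10, PCNA, RFC3), against 16.8%.

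**Figure D2:**
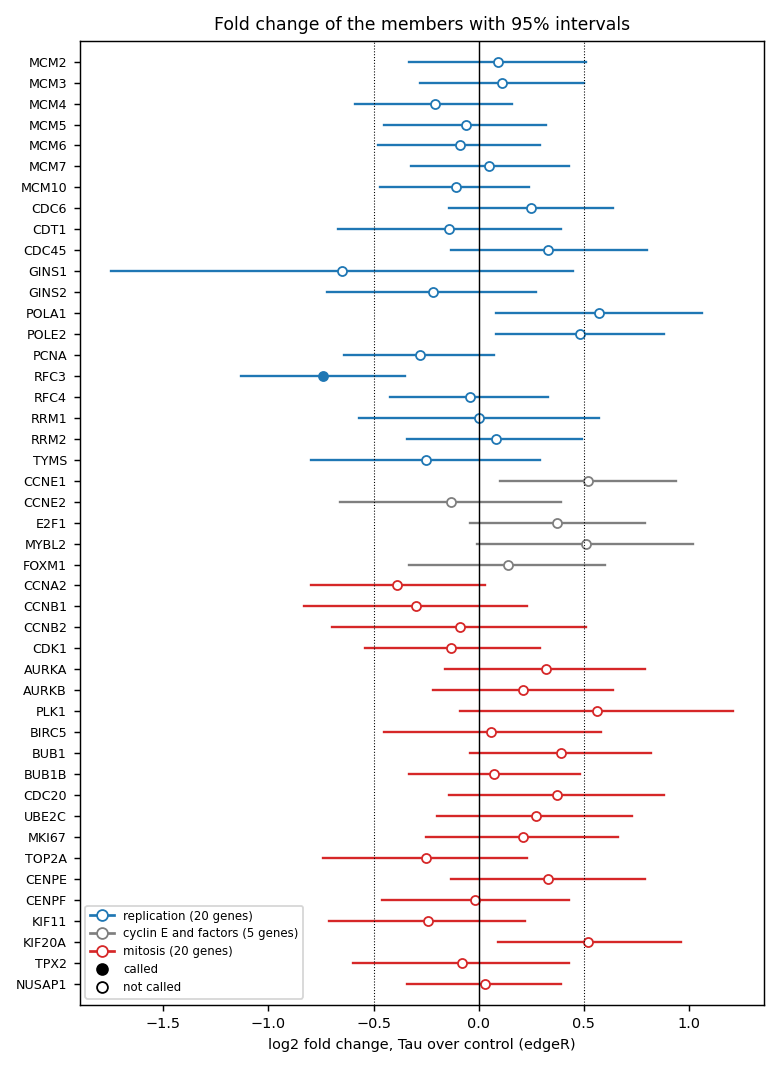
Log2 fold change of each of the 45 genes, libraries labelled Tau over control libraries, with its 95% confidence interval from the edgeR fit, grouped by role. Only RFC3 at -0.74 passed the call rule, and the GINS1 interval is the widest, at -1.75 to 0.45.

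The licensing and helicase genes showed no call among 12, with a median log2 fold change of -0.08. MCM7, a subunit of the helicase ring, had 137, 158 and 138 CPM in the libraries labelled Tau and 146, 121 and 150 CPM in the control libraries, a log2 fold change of 0.05 (95% confidence interval -0.32 to 0.43). MCM3, another subunit, had 96.3, 87.1 and 98.8 CPM in the libraries labelled Tau and 81.4, 75 and 105 CPM in the control libraries. MCM2 had 26.8, 19.6 and 22.4 CPM in the libraries labelled Tau and 20.5, 18.3 and 25.9 CPM in the control libraries. The groups overlapped for all 3 of these helicase genes. The other ring subunits MCM4, MCM5 and MCM6 had log2 fold changes of -0.21, -0.06 and -0.09. The loaders CDC6 and CDT1 had 0.25 and -0.14, and CDC45, the helicase partner, had 0.33 (95% confidence interval -0.13 to 0.80). MCM10, which helps to activate the helicase, had -0.11. GINS1, with 9 to 40 reads per library, allowed no close estimate, and GINS2 had -0.22.

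The only call was in the clamp and clamp loader group. RFC3, a small subunit of the RFC clamp loader (chr13:33818069-33966558, plus strand, GRCh38), had 9.27, 9.04 and 11 CPM in the libraries labelled Tau, against 16.2, 18.0 and 14.9 CPM in the control libraries. All 3 libraries labelled Tau lay below all 3 control libraries. RFC3 fell, with a log2 fold change of -0.74 (SE 0.18, 95% confidence interval -1.13 to -0.35, adjusted p = 0.0286, edgeR quasi-likelihood test with Benjamini-Hochberg adjustment). The RFC3 transcript has 38.0% GC, in a class of genes that lay lower in the libraries labelled Tau across the table. With the trend of fold change on GC content removed, the RFC3 log2 fold change was -0.42 and the call was lost (adjusted p = 0.145, edgeR). The call was also lost without control replicate 1 (adjusted p = 0.125, log2 fold change -0.75) and without Tau replicate 2 (adjusted p = 0.113, log2 fold change -0.70), both in edgeR. It was lost as well with the mitochondrial share as a covariate (adjusted p = 0.122, log2 fold change -0.63, edgeR).

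PCNA had 133, 119 and 127 CPM in the libraries labelled Tau and 148, 162 and 151 CPM in the control libraries. The groups did not overlap, but the log2 fold change of -0.28 (95% confidence interval -0.64 to 0.07, adjusted p = 0.274, edgeR) did not pass. RFC4, a second clamp loader subunit, had 26.1, 23.7 and 22.1 CPM in the libraries labelled Tau and 28.2, 21.1 and 24.9 CPM in the control libraries, which overlapped. RFC3 and RFC4 thus had log2 fold changes of -0.74 and -0.04, and the difference between them was not tested. The polymerase genes had positive values that did not pass. POLA1, the catalytic subunit of polymerase alpha that starts new strands, had 17.2, 27.8 and 23.0 CPM in the libraries labelled Tau and 12.8, 13.4 and 19.7 CPM in the control libraries (log2 fold change 0.57, adjusted p = 0.122, edgeR). POLE2, an accessory subunit of polymerase epsilon, had 9.71, 10.6 and 10.2 CPM in the libraries labelled Tau and 8.26, 6.56 and 7.05 CPM in the control libraries (log2 fold change 0.48, adjusted p = 0.113, edgeR). POLA1 was called higher in 5 of the 20 other analysis settings tried and POLE2 in 1.

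The genes of nucleotide supply had no call. TYMS, thymidylate synthase, had 46.9, 28.5 and 36.9 CPM in the libraries labelled Tau and 35.4, 62.7 and 35.9 CPM in the control libraries. Of the exon bases of TYMS 47.9% are shared with other genes, mostly the antisense gene ENOSF1. Its count may be affected by this where counting did not use the strand. RRM2, the small subunit of ribonucleotide reductase, had 50.3, 36.2 and 37.5 CPM in the libraries labelled Tau and 42.6, 32.4 and 42.9 CPM in the control libraries. The groups overlapped for both genes. RRM1, the large subunit, had a log2 fold change of 0.00 (95% confidence interval -0.57 to 0.57).

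The 5 regulators had a median log2 fold change of 0.37 and no call. CCNE1, the cyclin that with CDK2 opens S phase, had 8.4, 9.25 and 9.06 CPM in the libraries labelled Tau and 6.40, 5.29 and 6.95 CPM in the control libraries. The groups did not overlap, and the log2 fold change of 0.52 (SE 0.19, 95% confidence interval 0.10 to 0.94) missed the threshold with an adjusted p of 0.104 (edgeR). CCNE1 was called higher in 4 of the 20 settings, DESeq2 among them. Its paralog CCNE2 had 5.44, 7.36 and 6.06 CPM in the libraries labelled Tau and 8.94, 6.61 and 5.11 CPM in the control libraries, with groups that overlapped. CCNE2 shares 37.1% of its exon bases with other genes, mostly INTS8.

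E2F1, the activator of the replication genes, had 47.2, 39.4 and 38.0 CPM in the libraries labelled Tau and 33.9, 24.5 and 37.8 CPM in the control libraries (log2 fold change 0.37, adjusted p = 0.219, edgeR). MYBL2, the activator of mitotic genes, had 108, 62.6 and 72.2 CPM in the libraries labelled Tau and 48.6, 48.9 and 73.2 CPM in the control libraries (log2 fold change 0.51, adjusted p = 0.177, edgeR). The groups did not overlap for E2F1, though the nearest libraries stood at 38.0 and 37.8 CPM. They overlapped for MYBL2, where Tau replicate 1 stood above the other 5 libraries. FOXM1 had a log2 fold change of 0.14. E2F1 and MYBL2 transcripts have 61.6 and 60.5% GC, and with the GC trend removed their log2 fold changes were 0.06 and 0.21.

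The mitotic genes had no call in either direction among 20, with edgeR's unadjusted p under 0.05 for 1 and 1 call by DESeq2, both of them KIF20A. The cyclins and CDK1 had a median log2 fold change of -0.21. CDK1, the kinase that triggers mitosis, had 71.2, 63.5 and 58.0 CPM in the libraries labelled Tau and 87.9, 63.5 and 58.9 CPM in the control libraries. CCNB1, its cyclin B1 partner, had 37.3, 24.9 and 20.3 CPM in the libraries labelled Tau and 38.2, 39.0 and 24.6 CPM in the control libraries. The groups overlapped for both. CCNB2 and CCNA2, the cyclins B2 and A2, had log2 fold changes of -0.09 and -0.39, the second with a 95% confidence interval of -0.80 to 0.03.

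The mitotic kinases with survivin had a median log2 fold change of 0.27. AURKB, the Aurora kinase of the chromosomal passenger complex, had 28.5, 20.3 and 21.5 CPM in the libraries labelled Tau and 18.0, 18.1 and 24.6 CPM in the control libraries. BIRC5, the survivin subunit of the same complex, had 25.9, 13.9 and 14.3 CPM in the libraries labelled Tau and 15.7, 18.9 and 17.2 CPM in the control libraries. Both overlapped between groups, and Tau replicate 1 was the highest library for both. PLK1, the Polo-like kinase of mitotic entry, had 12.8, 6.90 and 4.99 CPM in the libraries labelled Tau and 5.14, 5.57 and 6.03 CPM in the control libraries. Its log2 fold change of 0.56 had a 95% confidence interval of -0.09 to 1.21, and Tau replicate 3 was below all control libraries while Tau replicate 1 was above them. AURKA, the spindle pole kinase, had a log2 fold change of 0.32.

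The spindle checkpoint and APC/C genes had a median log2 fold change of 0.32. UBE2C had 85.8, 71.4 and 52.3 CPM in the libraries labelled Tau and 58.5, 46.7 and 69.2 CPM in the control libraries. CDC20, the APC/C activator, had 17.0, 10.6 and 8.99 CPM in the libraries labelled Tau and 9.09, 9.28 and 9.95 CPM in the control libraries. The groups overlapped for both, with Tau replicate 1 again the highest library. The checkpoint genes BUB1 and BUB1B had log2 fold changes of 0.39 and 0.07.

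The chromosome and spindle proteins had a median log2 fold change of 0.01. MKI67 had 43.7, 28.0 and 27.2 CPM in the libraries labelled Tau and 24.7, 28.5 and 32.3 CPM in the control libraries. TOP2A, the topoisomerase that untangles sister chromatids, had 113, 78.8 and 69.3 CPM in the libraries labelled Tau and 114, 118 and 80.1 CPM in the control libraries. The proliferation markers thus averaged 32.9 ± 9.31 CPM in the Tau-labelled and 28.5 ± 3.81 CPM in the control libraries for MKI67, and 87.1 ± 23.1 and 104 ± 20.6 CPM for TOP2A (SD, n = 3 each). Their log2 fold changes of 0.21 and -0.25 had 95% confidence intervals of -0.25 to 0.66 and -0.74 to 0.23.

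NUSAP1, a spindle microtubule protein, had 61.3, 52.9 and 51.0 CPM in the libraries labelled Tau and 48.5, 60.3 and 53.2 CPM in the control libraries, which overlapped. Of its exon bases 86.8% are shared with other annotated genes, mostly 1 that is absent from the count table. KIF20A, the kinesin that carries the passenger complex to the central spindle, had 48.3, 36.7 and 28.3 CPM in the libraries labelled Tau and 25.8, 25.4 and 27.6 CPM in the control libraries. All 3 libraries labelled Tau lay above all 3 control libraries, and the log2 fold change of 0.52 (95% confidence interval 0.09 to 0.96, adjusted p = 0.108, edgeR) did not pass. KIF20A was called higher in 4 of the 20 settings. The other motor and spindle genes CENPE, CENPF, KIF11 and TPX2 had log2 fold changes of 0.33, -0.02, -0.24 and -0.08.

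**Figure D3:**
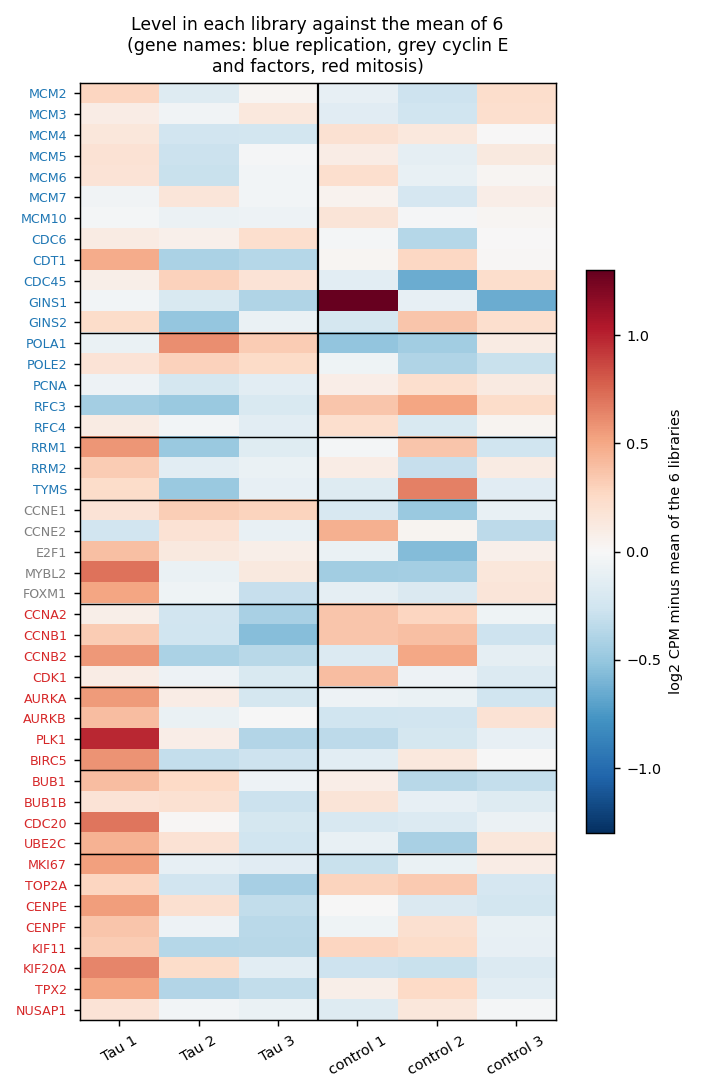
Log2 deviation of each of the 45 genes (rows, by role) from its mean over the 6 libraries (columns, Tau-labelled left of control). Colour runs from blue (low) to red (high), and the column of Tau replicate 1 is red across most mitosis rows while that of Tau replicate 3 is mostly blue there.

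The replication and the mitosis genes were also compared with each other within each library. The summed level of the replication genes was 249, 220 and 231 CPM per kilobase in the libraries labelled Tau, against 246, 251 and 257 in the control libraries. The summed level of the mitosis genes was 246, 186 and 158 CPM per kilobase in the libraries labelled Tau, against 194, 187 and 184 in the control libraries. Means were 233 ± 14.6 and 251 ± 5.51 CPM per kilobase for replication and 197 ± 45 and 188 ± 5.13 for mitosis, in the Tau-labelled and control libraries (SD, n = 3 each). The ratio of replication to mitosis was 1.012, 1.181 and 1.464 in the libraries labelled Tau and 1.265, 1.340 and 1.398 in the control libraries, with means of 1.22 ± 0.228 and 1.33 ± 0.0667. The ratio does not depend on how libraries are scaled. For the mitosis sum and for the ratio, the Tau-labelled libraries lay on both sides of the control libraries. For the replication sum, Tau replicates 2 and 3 lay below all control libraries and replicate 1 lay among them. Of this sum PCNA alone gave 90.7, 80.8 and 86.6 CPM per kilobase in the libraries labelled Tau. In the control libraries PCNA gave 101, 110 and 103. The median deviation of the replication genes from their mean log2 level was 0.13, -0.18 and -0.08 in the libraries labelled Tau. It was 0.03, -0.11 and 0.06 in the control libraries, so by this measure Tau replicate 3 lay among them.

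**Figure D4:**
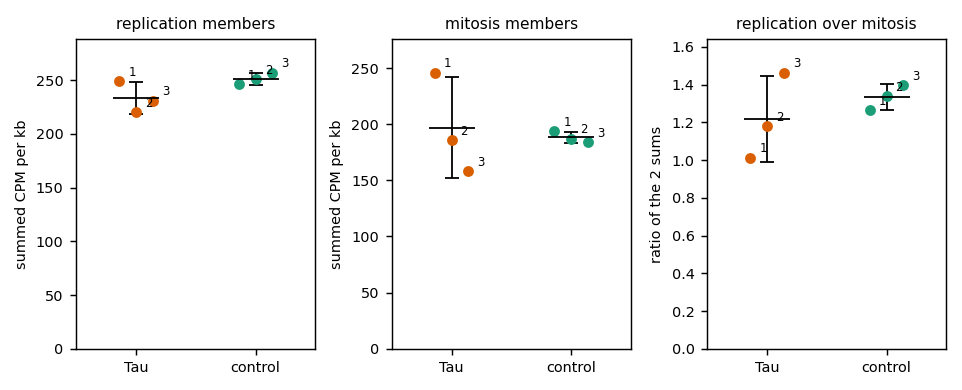
Summed level in CPM per kilobase of the 20 replication and the 20 mitosis genes in each library, and their ratio, with the Tau-labelled libraries left of the control libraries. The mitosis sum of Tau replicate 1 is 246, against 158 to 194 in the other 5 libraries, while the control ratios lie between 1.265 and 1.398.

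In the median of the mitosis genes, Tau replicate 1 lay above all control libraries and Tau replicate 3 below them. The median deviation of the mitosis genes from their mean log2 level was 0.43, -0.07 and -0.27 in the libraries labelled Tau, against -0.06, -0.07 and -0.11 in the control libraries. Tau replicate 1 was above both other Tau-labelled libraries for 19 of the 20 mitosis genes and 13 of the 20 replication genes, against 40.9% of all tested genes. It was the highest of all 6 libraries for 15 of the 20 mitosis genes and 5 of the 20 replication genes, against 19.0% of all tested genes. The same held for 30 of 60 other mitosis genes, which were not among the 45. With the GC trend removed the deviations of the mitosis genes were 0.51, -0.04 and -0.26 in the libraries labelled Tau, so the order of these libraries was the same. Tau replicate 1 had 45.8% mitochondrial reads, near control replicates 1 and 3, and the part of that share in the pattern was not tested. Without Tau replicate 1 the median log2 fold change of the mitosis genes was -0.03, and 0 mitosis genes were called.

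Other genes of the same pathways were read from lists of further members. Of 40 further replication genes 39 were tested, 2 rose and 1 fell, against 9.37% and 8.42% of all tested genes, with a median log2 fold change of -0.03. POLD3, a subunit of polymerase delta, rose with a log2 fold change of 0.66 (adjusted p = 0.0389, edgeR), and CHTF18, a part of an alternative clamp loader, by 0.72 (adjusted p = 0.0768, edgeR). DSCC1, another part of that loader, fell with a log2 fold change of -0.68 (adjusted p = 0.0563, edgeR). Of 60 further mitosis genes, all tested, 0 rose and 2 fell, against the same shares of all tested genes, with a median of 0.08. The 2 were MAD2L1, the checkpoint protein MAD2 (log2 fold change -0.93, adjusted p = 0.0338, edgeR), and SMC2, a condensin subunit (-0.70, adjusted p = 0.057, edgeR). CHTF18, DSCC1, MAD2L1 and SMC2 lost their calls with the GC trend removed. In that setting the mitosis list had 1 higher, CENPI at 0.82 (adjusted p = 0.0639, edgeR), and 0 lower. The replication list had 1 higher, POLD3, and 0 lower. Of all genes 6.55% were called higher and 4.11% lower there. No call in either list was left without control replicate 1. Of all tested genes 1.47% were called without that library. Without Tau replicate 2 the lists had 0 higher and 1 lower (6.29% of all genes called), without Tau replicate 3 they had none (7.04%), and without control replicate 3 they had 5 higher and 2 lower for replication and 4 higher and 8 lower for mitosis (29.9%). DESeq2 called 2 higher and 1 lower of the replication list and 0 higher and 3 lower of the mitosis list, against 19.2% of all genes. Of the mitosis list 8 were called lower with no filter on low counts and 5 with total counts as the scale, against 6.62% and 17.2% of all genes called lower. Before adjustment, edgeR's p was under 0.05 for 11 of the mitosis list, against 29.1% of all genes.

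A further list held 33 genes that decide whether a cell enters or leaves the cycle. Of these 32 were tested, 2 rose and 9 fell, against 9.37% and 8.42% of all tested genes, with a median log2 fold change of -0.28. Like the other lists, this one was chosen with earlier results of these data known. The part of that choice in these counts was not tested. CDKN1A, the p21 inhibitor of cyclin-dependent kinases, had 79.9, 29.0 and 37.8 CPM in the libraries labelled Tau and 15.9, 19.9 and 18.2 CPM in the control libraries. All libraries labelled Tau lay above all control libraries, and CDKN1A rose with a log2 fold change of 1.44 (SE 0.31, adjusted p = 0.0198, edgeR). BTG2, an antiproliferative gene, rose with a log2 fold change of 1.25 (adjusted p = 0.00782, edgeR) and was called in all 20 settings, CDKN1A in 17. CDKN1A was not called without control replicate 1. BTG1, CDK6, LIN37, RBBP4 and E2F5 were called lower, with log2 fold changes of -0.65, -0.57, -0.74, -0.55 and -0.78. They were called in 10, 9, 13, 10 and 6 of the 20 settings, in the same order. With the GC trend removed LIN37 was still called lower, at -1.0 (adjusted p = 0.0363, edgeR). BTG1, CDK6, RBBP4 and E2F5 were not called in that setting.

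RB1, the retinoblastoma protein that restrains E2F, had 36.6, 39.5 and 42.1 CPM in the libraries labelled Tau and 70.6, 62.9 and 54.7 CPM in the control libraries. The groups did not overlap, and RB1 fell with a log2 fold change of -0.67 (adjusted p = 0.0314, edgeR). With the GC trend removed the RB1 value was -0.32 and the call was lost (adjusted p = 0.184, edgeR). LIN54, the DREAM subunit that binds CHR elements, fell with a log2 fold change of -1.03 (adjusted p = 0.0202, edgeR) and was called in 18 of the 20 settings, but not without control replicate 1. DYRK1A, a kinase that promotes DREAM assembly, fell with -0.66 (adjusted p = 0.0325, edgeR), and with the GC trend removed its value of -0.48 was not called. CDKN1B, the p27 inhibitor, had 38.4, 28.1 and 29.5 CPM in the libraries labelled Tau and 52.3, 77.4 and 35.8 CPM in the control libraries, and fell with -0.79 (adjusted p = 0.0692, edgeR), a call that was lost with the GC trend removed. RB1, DYRK1A and CDKN1B were not called without control replicate 1, Tau replicate 2 or Tau replicate 3, nor was CDKN1B without control replicate 2 or with the mitochondrial covariate. The p57 gene CDKN1C, cyclin D1 (CCND1), the pocket proteins RBL1 and RBL2, the repressor E2F4 and the oncogene MYCN had log2 fold changes of -0.32, 0.23, -0.01, -0.08, 0.23 and -0.05 and were not called. Calls in this list were 1 higher and 0 lower without control replicate 1, when 179 genes were called higher and 71 lower in the whole table (1.47% called). They were 2 higher and 1 lower without Tau replicate 2 (6.29% of all genes called) or without Tau replicate 3 (7.04%), 2 higher and 4 lower without control replicate 2 (10.3%), 2 higher and 5 lower without Tau replicate 1 (11.5%), and 3 higher and 12 lower without control replicate 3 (29.9%). With the GC trend removed 2 were higher and 3 lower (10.7%), with the mitochondrial covariate 2 and 4 (7.88%), and at an adjusted p under 0.05 they were 2 and 3 (9.63%).

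The fold changes moved with the GC content of the transcripts. The median log2 fold change of all tested genes was -0.36 where GC was under 40%, and 0.34 where it was over 60%. Spearman's rho between log2 fold change and GC was 0.47 over 16663 genes and 0.41 over the 45 genes, given as descriptions, since these values share the same 6 libraries. The replication genes had a median GC of 45.6%, the mitosis genes 45.5% and the regulators 55.7%, against 47.9% for all tested genes. With the GC trend removed, 4 of the 45 genes were called higher and 0 lower, against 6.55% and 4.11% of all tested genes (10.7% in either direction). The 4 were POLA1 with a log2 fold change of 0.76 (adjusted p = 0.0975), POLE2 with 0.61 (adjusted p = 0.0642), the kinetochore motor gene CENPE with 0.73 (adjusted p = 0.0791) and BUB1 with 0.58 (adjusted p = 0.0985), all from edgeR. The medians were then -0.05 for replication and 0.17 for mitosis, against -0.02 for all tested genes. Whether the GC trend arose in the cells or in the libraries was not tested.

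**Figure D5:**
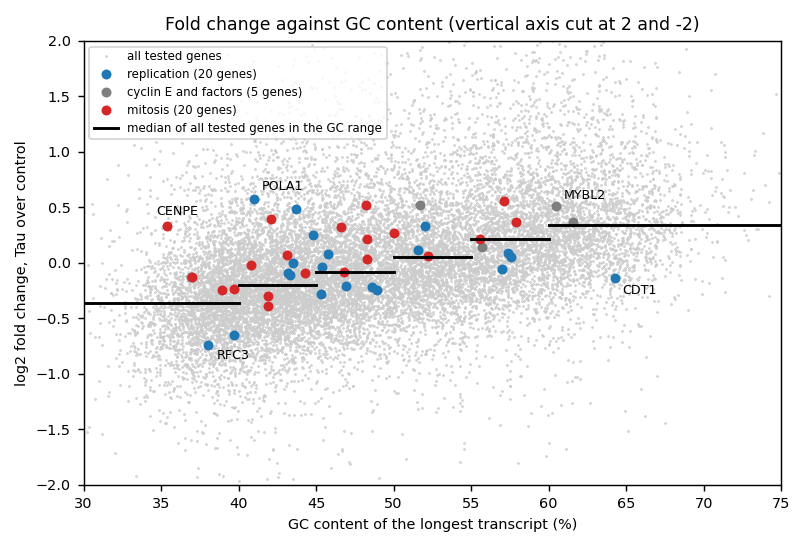
Log2 fold change, libraries labelled Tau over control libraries, against the GC percentage of the longest transcript, for all tested genes and for the 45 genes by programme. Black bars are medians of all tested genes, -0.36 under 40% GC and 0.34 over 60% GC, genes outside the axes are not drawn, and RFC3 at 38.0% GC lies at -0.74.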

How the data were processed

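The 6 libraries, 3 labelled Tau and 3 labelled control, were analysed from 1 deposited table. By the study's methods and the labels, the authors used bcl2fastq 1.8.4 for base calls and TopHat2 2.1.0 for alignment against GRCh38, and obtained the deposited counts per gene from featureCounts 1.5.0, with a strand setting that is not given in the sources used here. The authors divided these counts by library totals for the deposited RPM values, and RPM by a length for the deposited RPKM values, in R 3.4.1. The labels and the methods name different stranded library kits. Counts were used for the tests, RPM for 1 alternative, and the ratio of RPM to RPKM for gene lengths.

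In R 4.3.3, edgeR 4.0.16 with TMM scaling tested the 16778 of 58395 genes that passed its low-count filter (quasi-likelihood F test on the label, all 6 libraries). P-values were Benjamini-Hochberg adjusted over all tested genes, and a call needed an adjusted p under 0.1 with a log2 fold change beyond 0.5 in size. The standard error is the fold change over the square root of F. DESeq2 1.42.0 and limma 3.58.1 served as alternatives, with 0.1 added to RPM before taking log2. GC content and overlaps came from GENCODE 44, and the GC trend was a lowess curve of span 0.3 per library. The test was checked on simulated counts.

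Per-library values are given for called genes, the 2 highest levels in each role, and MKI67, TOP2A, CDK1, PCNA, MCM2, CCNE1, CCNE2 and E2F1. POLA1, POLE2, PLK1 and KIF20A were added after their values were seen. Of the further lists, the 3 called genes of smallest p in each direction and a set of regulators are named. BTG1, CDK6, LIN37, RBBP4, E2F5 and CENPI were added after their values were seen. The genes and lists were chosen with earlier results of these data known. No p-value is given for a list. Totals ran from 27945481 to 31706415 reads, and replicates of a group differed by more than sampling noise.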

Additional observations from a re-analysis of the deposited data

How the results depend on the processing

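Against 0 of the 45 genes called higher, there was 1 with DESeq2's size factors in edgeR, 3 with DESeq2, 2 with no filter on low counts, 1 with a filter of 1 CPM in 3 libraries and 4 with the GC trend removed, where 9.67, 10.6, 7.53, 9.46 and 6.55% of all tested genes were called higher, in the same order. Leaving out 1 library gave 0 to 6 (1.05 to 15.1% of all genes called higher), and doing so with the GC trend removed, an alternative chosen after seeing the data, gave 0 to 3 (0.341 to 10.6%). Against 1 called lower, there were 0 with the GC trend removed, with or without the replicate block, and 0 once the share of mitochondrial reads was a covariate, and 0 to 2 without 1 library (0 to 1 with the GC trend removed as well). Of all genes 4.11% were called lower with the GC trend removed, 1.05% with the block as well, 3.58% with the covariate and 0.417 to 14.8% without 1 library. Of the replication genes, 1 was called higher with DESeq2, 1 with no filter and 2 with the GC trend removed, and 0 to 2 without 1 library, also with the GC trend removed. Replication genes called lower were 0 with the GC trend removed, with it and the block, and with the mitochondrial covariate, and 0 to 1 without 1 library with or without the GC trend. Of the mitosis genes, 1 was called higher with DESeq2, 1 with no filter, 2 with the GC trend removed and 0 to 1 without 1 library, and 0 to 1 were called lower without 1 library, the 1 (CCNA2) without control replicate 3. The 6 genes called higher without control replicate 3 were CDC45, POLA1, CCNE1, E2F1, MYBL2 and KIF20A. The causes of these changes were not tested.

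With total counts as the scale the median of all tested genes shifted by -0.34 on the log2 scale, calls over all genes were 559 higher and 2886 lower against 1572 and 1413, and the medians were -0.36 for replication and -0.24 for mitosis. On RPM with limma they were -0.39 and -0.29, with 586 genes higher and 2779 lower. With the mitochondrial covariate the mitosis median was 0.32, and 721 genes were called higher and 601 lower. Without 1 library the replication median ran from -0.13 to 0.02 and the mitosis median from -0.03 to 0.23, and with the GC trend removed as well from -0.16 to 0.05 and from -0.05 to 0.30. The log2 ratio of replication to mitosis differed by -0.15 between the Tau-labelled and control means, by -0.03 from summed reads, by 0.05 from medians over genes, and by -0.29 to -0.02 without 1 library. Of the 45 genes, 33 changed the sign of their log2 fold change in at least 1 of the 20 other settings. Without the 2 settings that scale by library totals, which lower all genes alike, 27 did so in at least 1 of the other 18.

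Deviations of Tau-labelled and control libraries with the same replicate number correlated at -0.15, -0.46 and 0.17. Those with different numbers correlated at -0.364 to 0.441. Deviations of 3 libraries from their group mean are bound to each other, so these values cannot show whether the numbers pair libraries. With the replicate block 0 of the 45 genes were called higher and 1 lower, and 1286 genes were called higher and 925 lower in the table. With the block and the GC trend removed these were 434 and 177. The list of cell cycle entry and exit genes had 2 higher and 5 lower with the block, and 1 and 1 with the GC trend removed as well. Other counts over all genes that moved by more than 1.5 times were 899 higher and 716 lower at a false discovery rate under 0.05, 1099 and 689 with the GC trend removed, and, without 1 library, 179 to 2603 higher and 71 to 2541 lower. With 3 libraries a group, the 95% confidence intervals of the 45 genes reached a median of 0.44 to either side of the log2 fold change. Differences smaller than the reach of a gene's own interval could not be shown for that gene. Larger ones could also miss the call rule, such as POLA1 at 0.57 (interval 0.08 to 1.06) and KIF20A at 0.52 (interval 0.09 to 0.96).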
